A study of Mus musculus with 16 samples.

Results

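The genes described here are 7 genes of the neurotrophin system of the mouse: the ligands Bdnf and Ntf3, the receptors Ntrk2, Ntrk3 and Ngfr, the sorting receptor Sort1, and Vgf, which encodes a secretory granule protein. They were chosen by symbol from the 48397 gene symbols of the files, and all 7 had enough reads to be among the 17038 genes tested. RNA was sequenced from primary hippocampal neurons of CD1 mice, prepared from newborn pups and kept for 17 days in vitro (DIV). There were 4 groups of 4 libraries, and by the study's methods the libraries of a group came from independent cultures. All cultures received AraC, which kills dividing cells, at 3 DIV. The control neurons received 10-fold concentrated medium of Apoe-/- astrocytes at 10 and 13 DIV. The apoE2, apoE3 and apoE4 neurons received the same kind of medium from astrocyte lines homozygous for the human APOE ε2, ε3 or ε4 allele, derived from targeted replacement mice, so that the lipoproteins in it carried human apoE of 1 isoform. Each of these media came from an immortalized line, so that line and isoform cannot be told apart.

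Neurotrophins are secreted as precursors, which proteases cut to the mature ligands. Mature BDNF, the product of Bdnf, binds the tyrosine kinase TrkB (Ntrk2), and mature neurotrophin-3 (Ntf3) binds TrkC (Ntrk3). The Trk receptors signal through adaptors, the MAP kinase and PI3 kinase cascades and phospholipase C to neuronal survival, growth of dendrites and plasticity of synapses. The p75 neurotrophin receptor (Ngfr) binds all neurotrophins with lower affinity, enhances Trk signaling in some cells, and binds the uncut precursors together with sortilin (Sort1). In the hippocampus Bdnf and Vgf are induced by neuronal activity, Ntrk2 is found in both neurons and astrocytes, and Ngfr, which is high in the developing nervous system, is low in most adult hippocampal neurons.

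The reads assigned to genes numbered 14087723 to 34248172 in a library (median 22221832). Levels are given in CPM, which relate the reads of a gene to the size of its library as scaled by the TMM method of edgeR. All 10 neuronal markers examined were detected. Libraries that share a replicate number deviated together over all genes, those of number 1 the least. Ratios within a pair, meaning libraries of 2 groups with 1 number, are therefore given too. The test reported first is the quasi-likelihood test of edgeR, fitted to the 16 libraries without this number as a block, as the study's methods name none. Values of the fit with the replicate block are given beside it where they differ in call. A gene is called at an adjusted p under 0.05 (Benjamini-Hochberg over 17038 genes). The cutoffs of the study itself, 2-fold or more at an unadjusted p below 0.05, are also applied, as the 2-fold criterion. The study took its p from another test per gene and compared with the control only, whereas here the p is that of edgeR or, where named, DESeq2. The 3 comparisons with the control share its 4 libraries. In RNA of whole cultures, fewer cells of a type and less RNA per cell cannot be told apart.

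Promoter windows of 250 bases before to 50 bases after a transcription start (RefSeq, GRCm38.p6) were found for 4 of the 7 genes, with 7 windows for Bdnf, 2 for Ntf3 and 1 each for Ntrk2 and Ngfr. The windows of the receptors Ngfr and Ntrk2 are shown since the RNA of the former differed most between the groups and that of the latter hardly did. Capitals mark GC boxes, the letters GGGCGG or CCGCCC, which Sp-family factors are known to bind.

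Ngfr, chr11:95587649-95587948, minus strand: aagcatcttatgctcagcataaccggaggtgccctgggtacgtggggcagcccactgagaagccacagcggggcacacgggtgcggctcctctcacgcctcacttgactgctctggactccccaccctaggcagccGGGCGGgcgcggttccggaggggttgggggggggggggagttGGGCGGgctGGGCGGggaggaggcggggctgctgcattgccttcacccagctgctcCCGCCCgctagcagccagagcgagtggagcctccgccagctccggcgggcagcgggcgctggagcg
Ntrk2, chr13:58806319-58806618, plus strand: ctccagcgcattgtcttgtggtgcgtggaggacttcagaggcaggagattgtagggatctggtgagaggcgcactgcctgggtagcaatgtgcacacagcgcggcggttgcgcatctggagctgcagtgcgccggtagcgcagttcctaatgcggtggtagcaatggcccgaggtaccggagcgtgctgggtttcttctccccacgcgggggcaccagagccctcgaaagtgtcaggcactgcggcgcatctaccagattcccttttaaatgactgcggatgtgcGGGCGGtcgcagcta

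The Ngfr window had a GC content of 71.7% and held 23 CpG dinucleotides and 4 GC boxes. The Ntrk2 window also held 23 CpG dinucleotides, with a GC content of 61.3% and 1 GC box. Over all 32851 windows the median GC content was 52.7%, the median number of CpG dinucleotides was 7, and 35.7% held at least 1 GC box on either strand. The cAMP response element TGACGTCA, which is its own reverse complement and was present in 1.79% of all windows, was not found in any of the 11 windows of these genes. These are matches of letters, and no binding was measured.

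Per kilobase of exon sequence Vgf had the highest level of the 7 genes and Ntf3 the lowest. The mean over all 16 libraries was 158 ± 93.1 CPM per kilobase (SD, n = 16) for Vgf, 50.5 ± 13.8 for Sort1, 35.0 ± 19.0 for Bdnf, 31.0 ± 7.79 for Ntrk2, 12.4 ± 11.98 for Ngfr, 9.25 ± 2.93 for Ntrk3 and 2.54 ± 1.62 for Ntf3. The neighbors Sort1 and Bdnf, Bdnf and Ntrk2, and Ngfr and Ntrk3 were each closer than the larger of their SDs. The place of Ngfr depended on the group, since it had 3.67 ± 3.15 CPM per kilobase in the control and 4.59 ± 2.57 with apoE4 (SD, n = 4), below the 9.13 ± 1.56 and 10.97 ± 3.58 of Ntrk3, but 28.3 ± 9.08 with apoE3, above the 8.08 ± 2.83 of Ntrk3. The lengths are unions of all annotated exons and include rarely used ones, so that the level of a gene with many isoforms such as Ntrk3, with 30170 bases of exon, is understated. Counts of Ntrk2 and Ntrk3 pool the full-length kinases with the truncated receptors that lack the kinase domain.

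Ngfr, which lies on chromosome 11 from 95568818 to 95587735 (mm10, minus strand), was the gene that differed between the groups. Its level was 6.55, 7.49, 7.61 and 28.9 CPM in control replicates 1 to 4. It was 27.3, 28.4, 27.3 and 96.7 CPM in the apoE2 libraries. In the apoE3 libraries it was 124, 60.1, 82.9 and 122 CPM, and each of these 4 values was above every control value. It was 17.9, 12.3, 6.09 and 27.0 CPM in the apoE4 libraries, of which 3 lay within the range of the control values and replicate 3 just below it. The libraries with number 4 had the highest value in the control, apoE2 and apoE4 groups. The group means were 12.6 ± 10.9 CPM in the control, 44.9 ± 34.5 with apoE2, 97.4 ± 31.3 with apoE3 and 15.8 ± 8.87 with apoE4 (SD, n = 4), and they rest on 1100, 5646, 7137 and 1335 reads.

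**Figure D1:**
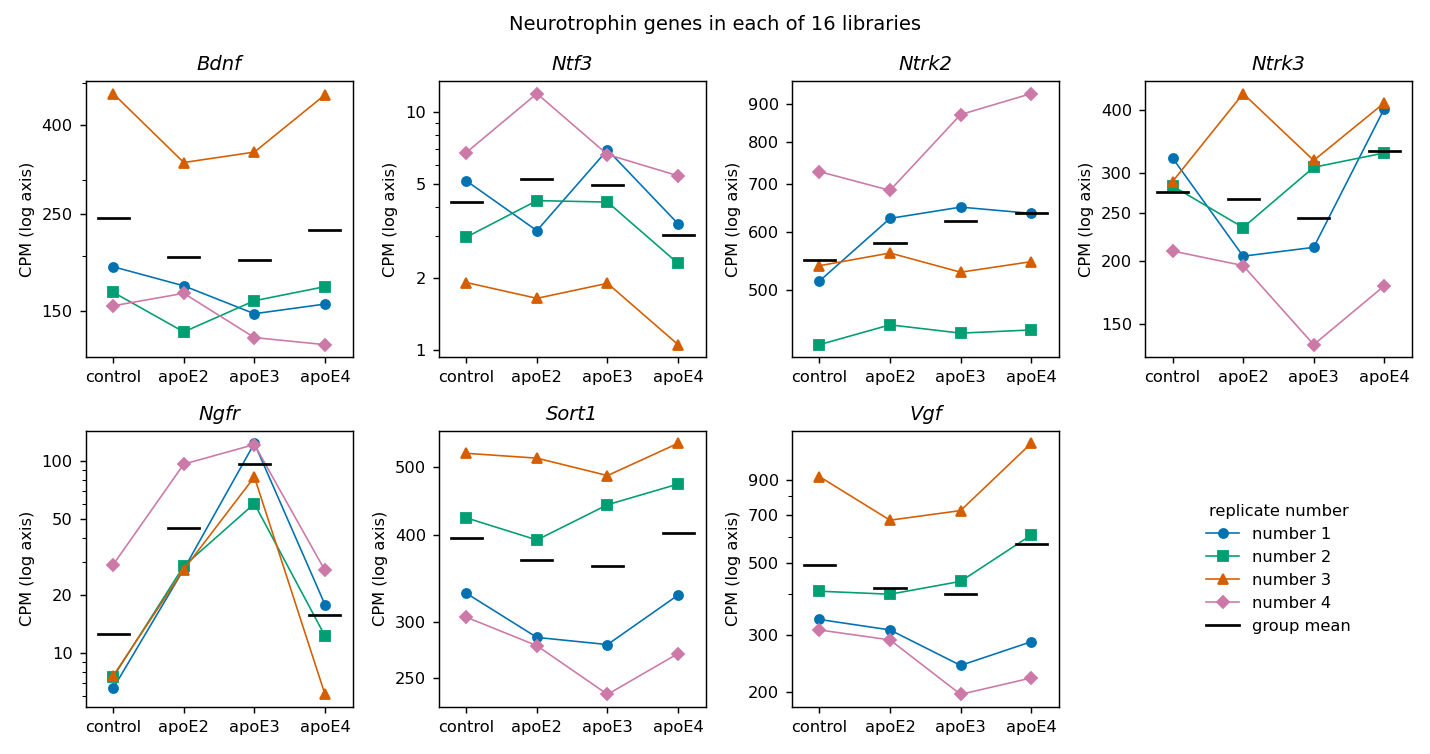
Level of each of the 7 genes (CPM, log axis) in the 16 libraries, with libraries of the same replicate number joined by a line and the group mean as a black bar. The lines of Ngfr all climb from the control to apoE3 and fall to apoE4, from a mean of 97.4 to 15.8 CPM. The other genes differ more by number than by group, and among them only Sort1 and Vgf have lines that do not cross.

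Against the control neurons, Ngfr was 7.73-fold higher with apoE3, a log2 fold change of 2.95 (standard error, SE, 0.61, 95% interval 1.64 to 4.26, adjusted p = 0.290 by edgeR). It met the 2-fold criterion, as did 1.96% of all genes tested, but not the adjusted threshold, which 0.00587% of the genes passed. With the replicate block the log2 fold change was 3.19 (SE 0.29, adjusted p = 4.04e-05 by edgeR), the largest increase of all 17038 genes in that fit, where 11.7% of the genes were called. Within the 4 pairs the fold was 19.0, 8.03, 10.9 and 4.23, higher in 4 of 4 pairs, and the control and apoE3 values did not overlap, as was so in the same direction for 1.4% of all genes. DESeq2 without the block also called it (adjusted p = 4.23e-04), among 0.239% of its genes. When the 4 libraries of a number were left out, an alternative added after seeing the data, edgeR called it without the block only in the absence of number 4 (log2 fold change 3.61, adjusted p = 0.0142). Without number 1, 2 or 3 the log2 fold change was 2.60, 2.93 or 2.84 (adjusted p = 1, 0.322 or 0.892 by edgeR).

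With apoE2 Ngfr was 3.58-fold higher than in the control, a log2 fold change of 1.84 (SE 0.59, 95% interval 0.58 to 3.10, adjusted p = 1 by edgeR). It met the 2-fold criterion, as did 0.722% of the genes. The replicate block gave a log2 fold change of 1.86 (SE 0.28, adjusted p = 0.00452 by edgeR), with 1.73% of the genes called. The fold within the pairs lay close together, at 4.18, 3.80, 3.58 and 3.34, although the apoE2 and control values overlapped through control replicate 4. Without apoE2 replicate 4 the log2 fold change without the block was 1.14, and without control replicate 4 it was 2.64.

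With apoE4 the log2 fold change of Ngfr was 0.33 (SE 0.58, 95% interval -0.91 to 1.56, adjusted p = 1.00 by edgeR), and 0.44 with the replicate block (95% interval -0.18 to 1.06, adjusted p = 0.487 by edgeR). The fold within the pairs was 2.73, 1.64, 0.800 and 0.933, so that 2 of 4 pairs were higher.

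The isoforms were also compared directly. Ngfr was lower with apoE4 than with apoE3 by a log2 fold change of -2.62 (SE 0.60, 95% interval -3.91 to -1.33, adjusted p = 0.217 by edgeR), lower in 4 of 4 pairs and without overlap, as were 1.11% of the genes in that direction. With the replicate block it was -2.76 (SE 0.29, adjusted p = 2.11e-04 by edgeR), the largest decrease of all 17038 genes both with and without the block, and 1.76% of the genes were called with it. It was lower with apoE4 than with apoE2 by -1.51 (SE 0.58, adjusted p = 0.687 by edgeR), or by -1.43 with the block (adjusted p = 0.00861 by edgeR, with 4.44% of the genes called). The apoE4 and apoE2 values did not overlap, the nearest being 27.0 and 27.3 CPM, as was so in that direction for 1.5% of the genes. The difference met the 2-fold criterion, as did 1.3% of the genes, but no longer did so without apoE2 replicate 4 (log2 fold change -0.83), apoE4 replicate 2 (-1.41), apoE4 replicate 3 (-1.24) or the 4 libraries numbered 3 (-1.42). Between apoE3 and apoE2 the log2 fold change was 1.11 (SE 0.57, adjusted p = 1.00 by edgeR), and 1.33 with the block (SE 0.27, adjusted p = 0.0277 by edgeR, higher in 4 of 4 pairs, with 1.31% of the genes called). Between these groups the 2-fold criterion was not met, but it was with the block, with DESeq2, with only these 2 groups in the fit, and without the libraries numbered 4, apoE2 replicate 4 or control replicate 4.

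Across the 7 genes, edgeR without the block called 0 in each of the 6 comparisons. At an unadjusted p under 0.05 there was 1, Ngfr, in 4 of them and 0 for apoE4 against the control and apoE3 against apoE2, while DESeq2 called Ngfr for apoE3 against the control and for apoE4 against apoE3. With the block Ngfr was the 1 gene called in the 5 comparisons other than apoE4 against the control. Over all tested genes, edgeR without the block called 0% with apoE2, 0.00587% with apoE3 and 0.194% with apoE4 against the control, and 0.147% for apoE4 against apoE3, 0.252% for apoE4 against apoE2 and 0% for apoE3 against apoE2. In the same order the shares at an unadjusted p under 0.05 were 2.79, 6.43, 3.3, 4.7, 5.34 and 2.28%, and those meeting the 2-fold criterion, which Ngfr met in the comparisons of apoE2 and apoE3 with the control and of apoE4 with apoE3 and apoE2, were 0.722, 1.96, 1.15, 1.25, 1.3 and 0.687%. With the block 1.73, 11.7, 3.3, 1.76, 4.44 and 1.31% were called. DESeq2 called 0.0774, 0.239, 0.427, 0.3, 0.817 and 0.0145% without the block and 4.4, 15.6, 6.11, 4.19, 7.81 and 4.15% with it. The direction was the same in 4 of 4 pairs for many genes, being higher in 11.6, 18.6, 14.9, 12.5, 11.8 and 12% and lower in 9.73, 16, 11.3, 12, 12.4 and 11.6% of them. The median log2 fold change of the 7 genes was -0.13 with apoE3 against the control, beside 0.02 over all genes tested. It was -0.05 with apoE2, beside 0.01, and 0.21 with apoE4, beside 0.00. With the block the medians of the 7 genes were -0.16 with apoE3, -0.10 with apoE2 and 0.07 with apoE4.

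**Figure D2:**
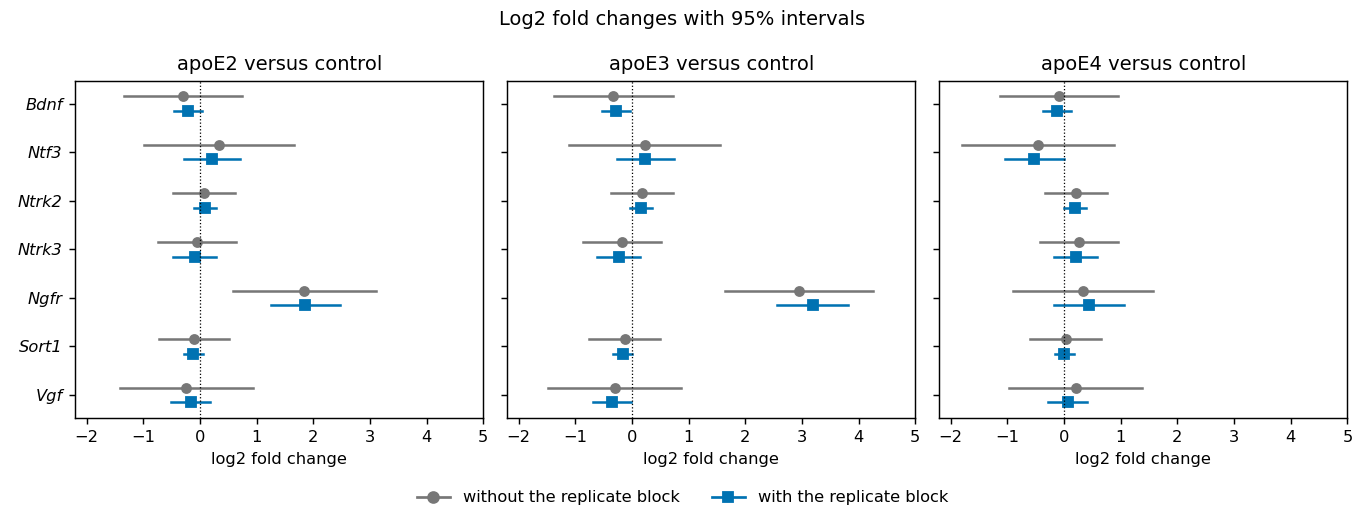
Log2 fold change of each gene against the control neurons with its 95% interval, from edgeR without (grey circles) and with (blue squares) the replicate number as a block. The intervals of Ngfr lie above 0 with apoE2 and apoE3 in both fits and hold 0 with apoE4, and those of the other 6 genes are narrower with the block, where the intervals of Bdnf and Vgf with apoE3 and of Ntf3 with apoE4 lie just below 0.

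Markers of neurons and of other cell types were called only with the block or by DESeq2. Without the block edgeR called 0 of the 57 tested markers in each of the 6 comparisons, with 1 to 3 at an unadjusted p under 0.05. By DESeq2 1 was called with apoE2, 1 with apoE3, 1 for apoE4 against apoE3 and 0 in the other 3. With the block edgeR called 2 with apoE2, 20 with apoE3 and 9 with apoE4 against the control. These are 3.51, 35.1 and 15.8% of the 57, beside 1.73, 11.7 and 3.3% of all genes. For apoE4 against apoE3 it called 4 (7.02%, beside 1.76%), for apoE4 against apoE2 4 (7.02%, beside 4.44%) and for apoE3 against apoE2 0. Of the 10 neuronal markers, 9 had a log2 fold change below 0 with apoE3 against the control, with a median of -0.23, or -0.26 with the block, beside 0.02 over all genes in either fit. With the block Gad1 (-0.69) and Snap25 (-0.35) were called lower and Tubb3 (0.35) higher, which is 30% of the list. Against the control 0 of the 10 were called with apoE2 or apoE4. Gad1 was called higher with apoE4 than with apoE3 (0.63, adjusted p = 0.0198 by edgeR). The sums of the list overlapped, at 4393 to 7438 CPM in the control, 4847 to 8303 with apoE2, 3058 to 7223 with apoE3 and 3556 to 7485 with apoE4. The dividing cell list of 8 genes summed to 8.29 to 20.4 CPM in the control, 21.9 to 30.9 with apoE2, 28.3 to 41.8 with apoE3 and 13.3 to 36.1 with apoE4, and none of its genes was at 0 in all libraries of a group. Top2a, a topoisomerase of proliferating cells, had 2.18 to 7.44 CPM in the control, 8.88 to 21.4 with apoE2, 15.8 to 35.0 with apoE3 and 4.15 to 10.4 with apoE4, and was the 1 gene of the list called with the block for apoE2, for apoE3 and for apoE4 against apoE3. Each of these calls is 12.5% of the list, beside 1.73, 11.7 and 1.76% of all genes in the same order. The log2 fold change of Top2a with apoE3 was 2.498 without the block (adjusted p = 0.202 by edgeR) and 2.58 with it (adjusted p = 5.59e-04 by edgeR). The other 7 genes summed to 5.84 to 13.0 CPM in the control, 6.53 to 13.2 with apoE2, 6.81 to 24.8 with apoE3 and 7.55 to 25.7 with apoE4.

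The 8 Schwann cell markers, a list that includes Gap43, which neurons also express, summed to 284 to 491 CPM in the control, 478 to 541 with apoE2, 547 to 686 with apoE3 and 317 to 546 with apoE4. Without Gap43 the sums were 18.8 to 118, 31.3 to 225, 27.5 to 263 and 22.9 to 249 CPM. Foxd3 was at 0 in all 16 libraries and Pmp2 in 15. With the block Cdh19 (log2 fold change 1.44) and Gap43 (0.50) were called higher with apoE3 among 5 tested genes, Cdh19 (1.21) with apoE4, and 0 with apoE2. These are 40% of the tested list with apoE3 and 20% with apoE4. Gap43 was called lower with apoE4 than with apoE3 (-0.57, adjusted p = 0.0140 by edgeR). The 8 astrocyte markers summed to 1286 to 2735 CPM in the control, 1153 to 2641 with apoE2, 1532 to 5584 with apoE3 and 1432 to 4669 with apoE4. With the block 7 of 8 (87.5%) were called higher with apoE3 and 4 of 8 (50%) with apoE4, beside 11.7 and 3.3% of all genes. With apoE2 0 were called. The fibroblast and meningeal markers summed to 28.3 to 190 CPM in the control, 31.0 to 209 with apoE2, 33.8 to 362 with apoE3 and 37.1 to 331 with apoE4. Of these 8 markers, 1 (12.5%) was called higher with the block with apoE2, 3 (37.5%) with apoE3 and 2 (25%) with apoE4. The oligodendrocyte lineage markers summed to 107 to 438 CPM in the control, 120 to 825 with apoE2, 139 to 846 with apoE3 and 110 to 677 with apoE4. With the block 3 of these 8 (37.5%) were called higher with apoE3, namely Cspg4, Olig1 and Olig2. With apoE4 1 (12.5%) was called higher (Cspg4, log2 fold change 0.84), and 0 were called with apoE2. Olig2 (-0.61) was called lower with apoE4 than with apoE3. The endothelial and mural sums were 13.8 to 73.0, 13.5 to 62.6, 15.8 to 172 and 13.1 to 122 CPM in the same order, with 1 of 6 tested, Flt1, called higher with apoE3 (1.15) and with apoE4 (1.403), and 0 with apoE2. The microglial sums were 6.28 to 28.0, 8.77 to 21.9, 8.27 to 36.2 and 8.52 to 28.9 CPM, and 0 of these 7 markers were called in the 3 comparisons with the control. The call of Flt1 is 16.7% of the tested endothelial and mural genes, both with apoE3 and with apoE4. Over all genes the block called 1.73% with apoE2, 11.7% with apoE3 and 3.3% with apoE4. The part of the cells of these lists in the Ngfr values was not tested.

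**Figure D3:**
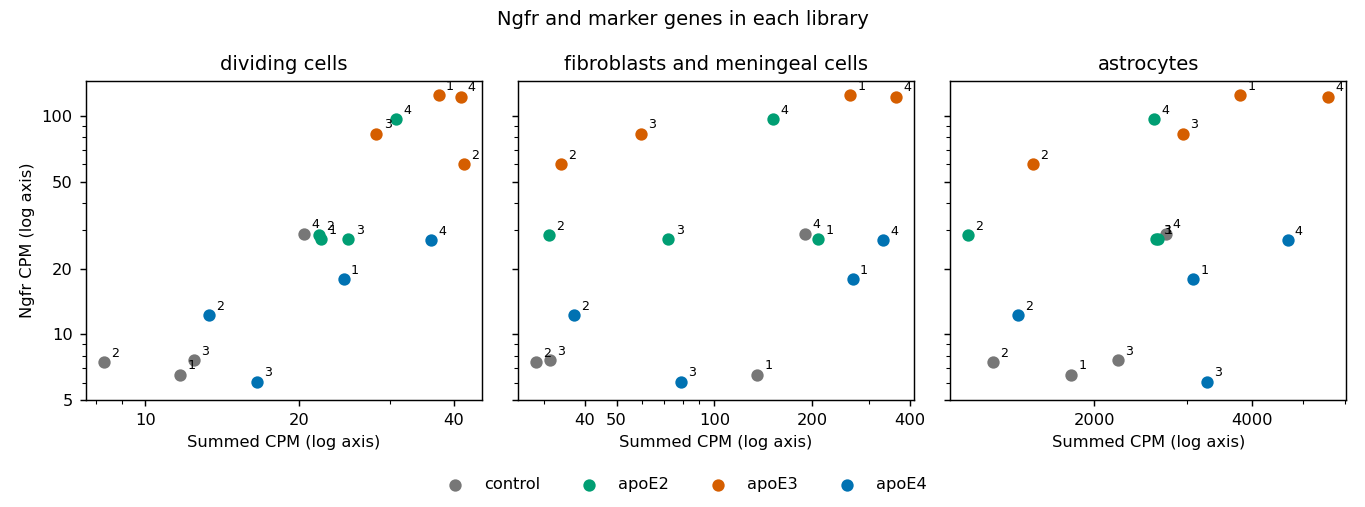
Ngfr level (CPM, log axis) against the summed CPM of the dividing cell, fibroblast and meningeal, and astrocyte markers (log axes), 1 point per library colored by group and numbered by replicate. The dividing cell sums are 8.29 to 20.4 CPM in the control and 21.9 to 30.9 with apoE2. They are 28.3 to 41.8 CPM with apoE3 and 13.3 to 36.1 with apoE4. The apoE4 libraries overlap those of apoE3 in the fibroblast and astrocyte sums, reaching 331 and 4669 CPM, and have Ngfr values of 6.09 to 27.0 CPM. The Schwann cell sums, which include Gap43 and are not plotted, are 547 to 686 CPM with apoE3 and 317 to 546 with apoE4. The part of these cells in the Ngfr values was not tested.

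Bdnf, the ligand of TrkB, lies on chromosome 2 from 109674700 to 109727007 (plus strand). Its level in replicates 1 to 4 was 189, 165, 473 and 154 CPM in the control and 171, 134, 328 and 164 CPM with apoE2. It was 148, 158, 347 and 130 CPM with apoE3, and 155, 170, 470 and 125 CPM with apoE4. Replicate 3 had the highest value in every group, and the groups overlapped in every comparison. Against the control the log2 fold change with apoE3 was -0.33 (SE 0.49, adjusted p = 0.879 by edgeR), lower in 4 of 4 pairs. With the block it was -0.28 (95% interval -0.53 to -0.03, adjusted p = 0.137 by edgeR), which missed the threshold. With apoE2 it was -0.30 (95% interval -1.34 to 0.74) and with apoE4 -0.09 (95% interval -1.13 to 0.95). An unnamed gene model on the opposite strand overlaps 14.4% of the exon sequence of Bdnf, and whether counting used the strand is not stated.

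Ntf3, the ligand of TrkC, lies on chromosome 6 from 126101412 to 126166910 (minus strand) and rests on few reads, 256 to 669 per group. Its level in replicates 1 to 4 was 5.14, 2.98, 1.92 and 6.76 CPM in the control and 3.17, 4.24, 1.65 and 11.95 CPM with apoE2. It was 6.93, 4.18, 1.90 and 6.63 CPM with apoE3, and 3.39, 2.31, 1.05 and 5.39 CPM with apoE4. Replicate 3 was the lowest in each group, and the apoE4 value was the lowest of its number in 3 of 4 numbers. Against the control the log2 fold changes for apoE2, apoE3 and apoE4 were 0.34, 0.22 and -0.46 (edgeR SE 0.62, 0.62 and 0.63). With apoE4 it was lower than the control and lower than apoE3 in 4 of 4 pairs. With the block the differences of apoE4 from apoE3 (-0.76, 95% interval -1.29 to -0.24, adjusted p = 0.143 by edgeR) and from apoE2 (-0.74, 95% interval -1.26 to -0.23, adjusted p = 0.106 by edgeR) missed the adjusted threshold.

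Ntrk2, the gene of TrkB, lies on chromosome 13 from 58806569 to 59133970 (plus strand). Its level in replicates 1 to 4 was 514, 421, 540 and 727 CPM in the control and 627, 448, 562 and 685 CPM with apoE2. It was 650, 436, 529 and 871 CPM with apoE3, and 637, 441, 547 and 931 CPM with apoE4. Replicate 4 had the highest and replicate 2 the lowest value in each group. Against the control the log2 fold changes for apoE2, apoE3 and apoE4 were 0.08, 0.18 and 0.21 (edgeR SE 0.25 or 0.26). With apoE4, higher in 4 of 4 pairs, the blocked 95% interval was -0.01 to 0.38 (adjusted p = 0.322 by edgeR).

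Ntrk3, the gene of TrkC, lies on chromosome 7 from 78175959 to 78738012 (minus strand). Its level in replicates 1 to 4 was 321, 283, 288 and 210 CPM in the control and 205, 234, 431 and 196 CPM with apoE2. It was 213, 308, 318 and 137 CPM with apoE3, and 403, 329, 413 and 179 CPM with apoE4. Replicate 4 was the lowest in each group. The values of apoE2, apoE3 and apoE4 against the control were -0.05, -0.18 and 0.26 on the log2 scale (edgeR SE 0.32). Between apoE4 and apoE3 it was 0.44 (SE 0.32, adjusted p = 1.00 by edgeR), higher in 4 of 4 pairs. With the block the same difference had a 95% interval of 0.06 to 0.82 (adjusted p = 0.230 by edgeR).

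Sort1, the gene of sortilin, lies on chromosome 3 from 108284082 to 108361511 (plus strand). In replicates 1 to 4 its level was 330, 423, 523 and 305 CPM in the control and 286, 394, 515 and 278 CPM with apoE2. It was 279, 442, 486 and 237 CPM with apoE3, and 328, 473, 541 and 271 CPM with apoE4. The order of the numbers, with replicate 3 highest, then 2, 1 and 4, was the same in each of the 4 groups. The log2 fold changes against the control were -0.10, -0.13 and 0.03 for apoE2, apoE3 and apoE4, each with an edgeR SE of 0.29. Between apoE4 and apoE3 it was 0.17 with the block (95% interval 0.00 to 0.34, adjusted p = 0.306 by edgeR), higher in 4 of 4 pairs. For apoE3 against the control, where Ngfr was 7.73-fold higher, the blocked 95% interval of Sort1, its partner in binding the uncut precursors, was -0.33 to 0.01 (log2).

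Vgf, whose product is cut into peptides of the regulated secretory pathway and which BDNF is known to induce, lies on chromosome 5 from 137026392 to 137033351 (plus strand). In replicates 1 to 4 its level was 334, 408, 920 and 310 CPM in the control and 310, 399, 675 and 289 CPM with apoE2. It was 241, 438, 723 and 196 CPM with apoE3, and 285, 608, 1166 and 220 CPM with apoE4. Replicate 3 was the highest and replicate 4 the lowest in each group. On the log2 scale apoE2, apoE3 and apoE4 differed from the control by -0.24, -0.30 and 0.21 (edgeR SE 0.55), and with the block by -0.17, -0.35 and 0.07. The value with apoE2 was lower than the control in 4 of 4 pairs. Between apoE4 and apoE3 it was 0.51 (SE 0.55), or 0.42 with the block (95% interval 0.07 to 0.76, adjusted p = 0.212 by edgeR), again higher in 4 of 4 pairs, as were 12.5% of all genes.

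The variance of log2 CPM divided differently for Ngfr than for the other 6 genes. Of the variance of Ngfr over the 16 libraries, 74.4% lay between the 4 groups, a share at the 99.6th percentile of all tested genes, and 18.8% between the 4 replicate numbers. The share between numbers was 92.1% for Bdnf, 93.0% for Sort1, 88.0% for Ntrk2, 87.9% for Vgf, 79.6% for Ntf3 and 62.5% for Ntrk3, and the share between groups of these 6 was 2.81 to 12.6%. Over all genes the median shares were 14.4% between groups and 56.1% between numbers. The mean of the 4 libraries numbered 3 was 405 ± 77.6 CPM for Bdnf and 871 ± 223 CPM for Vgf (SD, n = 4), against 143 to 166 and 254 to 463 CPM in the other numbers. The libraries numbered 4 had the highest means of Ntrk2, at 804 ± 116 CPM, and of Ntf3, at 7.68 ± 2.91 CPM. What a number stands for, such as a preparation of cells or a day, is not given in the labels.

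**Figure D4:**
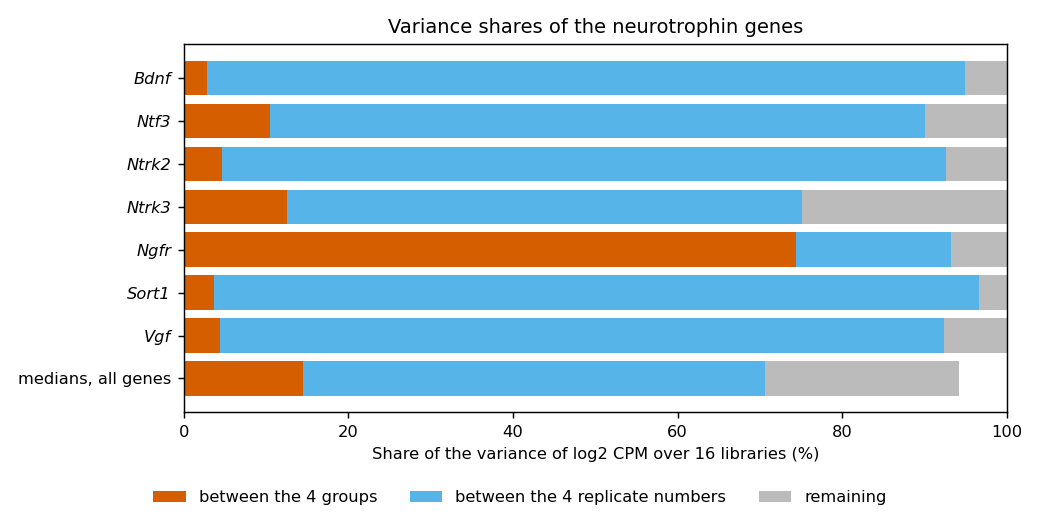
Share of the variance of log2 CPM over 16 libraries that lies between the 4 groups, between the 4 replicate numbers, and in neither, for each gene, with the medians over all tested genes in the last bar, which need not sum to 100%. The share between groups is 74.4% for Ngfr and at most 12.6% for the other genes.

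Over the 16 libraries, which share groups and replicate numbers, Sort1 and Vgf had a Pearson correlation of log2 CPM of 0.95, Bdnf and Vgf of 0.89, and Ntf3 and Vgf of -0.86. After the mean of each replicate number was removed, the correlation was 0.85 for Bdnf and Vgf and 0.83 for Ntrk3 and Sort1, and -0.31 for Ntf3 and Vgf. On this second scale the correlation of Ngfr was -0.59 with Bdnf, -0.61 with Sort1, -0.59 with Vgf, -0.41 with Ntrk3, 0.23 with Ntrk2 and 0.55 with Ntf3. These are descriptions, with no test.

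The genes most like each of the 7 were sought by the same correlation among 14163 tested genes with a mean of at least 1 CPM. For Ngfr they were Fhod3, Bmp2 and Cdh13 (0.94, 0.92 and 0.91), and after removal of the number means Hpgd, Agfg1 and Hltf (0.98, 0.96 and 0.96). Fhod3 is a formin that acts on actin, Bmp2 is a bone morphogenetic protein, Cdh13 is a cadherin, and Hpgd is an enzyme that breaks down prostaglandins. For Bdnf they were Prickle1, Dusp3 and Dusp4 (0.96, 0.95 and 0.94), the Dusp genes encoding phosphatases, and after removal Arr3, Gltscr2 and Arfgap1 (0.93, 0.90 and 0.90). For Vgf they were Pld3, D630023F18Rik and the neurofilament gene Nefl (0.98, 0.97 and 0.97), with Pld3 again first after removal (0.94), before Thoc5 and Arr3 (0.91 and 0.89).

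For Ntrk2 the most similar genes were Nid2, H2-K1 and Tnfrsf9 (0.99, 0.98 and 0.98), and after removal Phtf1, Plpp3 and Sfrp1 (0.96, 0.95 and 0.94). For Ntrk3 they were Ank3, Bsn and Tanc2 (0.99, 0.98 and 0.97), which encode scaffold proteins of axons and synapses, and after removal Map1a, Mast1 and Astn1 (0.98, 0.97 and 0.97). For Sort1 they were Csnk1g3, March6 and Entpd6 (all 0.97), and after removal Sgsm1, Ppfia4 and Peg3 (0.95, 0.94 and 0.94). For Ntf3 they included Sos2 and Fnip2 (0.94 and 0.92), and after removal Akirin2 and Tada2a (0.92 and 0.89).

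Other ligands and receptors of the system were not called without the block. Ntf5 (neurotrophin-4) had 84 reads in all, was at 0 in 1 library, and did not pass the filter on low counts. Of the sorting receptors related to sortilin, Sorl1 had 286 ± 135 CPM, Sorcs2 187 ± 49.3 CPM, Sorcs3 31.4 ± 30.8 CPM and Sorcs1 17.9 ± 8.31 CPM (SD, n = 16). For Sorl1 and Sorcs2 the log2 fold changes against the control lay between -0.03 and 0.27, and neither was called in any comparison with the block.

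Sorcs3 moved opposite to Ngfr with apoE2 and apoE3, as called with the block. Its level in replicates 1 to 4 was 16.9, 54.5, 84.6 and 12.1 CPM in the control and 6.55, 25.0, 23.9 and 6.38 CPM with apoE2. It was 5.64, 42.4, 31.6 and 3.81 CPM with apoE3, and 10.98, 59.0, 108 and 11.04 CPM with apoE4. The values overlapped between the groups, but were lower than the control in 4 of 4 pairs with apoE2 and with apoE3. The log2 fold change was -1.44 with apoE2 (SE 0.92, adjusted p = 1 by edgeR) and -1.001 with apoE3 (SE 0.91, adjusted p = 0.815 by edgeR). With the block it was -1.33 (adjusted p = 0.0118 by edgeR) and -1.15 (adjusted p = 0.00684 by edgeR), and apoE4 was higher than apoE3 by 1.12 and than apoE2 by 1.30 (adjusted p = 0.0240 and 0.00549 by edgeR). Against the control the apoE4 value was -0.02 with the block. Sorcs1 was higher with apoE4 than with apoE2 with the block, by 0.78 (adjusted p = 0.0176 by edgeR).

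Nradd, a receptor with a death domain related to that of p75NTR, was low, at 1.01 ± 0.52 CPM in the control and 3.07 ± 2.79 CPM with apoE3 (SD, n = 4). Its log2 fold change with apoE3 was 1.59 (SE 0.75, adjusted p = 0.770 by edgeR), or 1.35 with the block (adjusted p = 0.0141 by edgeR, higher in 4 of 4 pairs). With apoE2 it was 1.63 ± 1.06 CPM and higher in 3 of 4 pairs (log2 fold change 0.60 with the block, adjusted p = 0.471 by edgeR). With apoE4 it was 2.18 ± 1.35 CPM and higher in 4 of 4 pairs (log2 fold change 1.04 with the block, adjusted p = 0.104 by edgeR). The astrocyte sums and the fibroblast and meningeal sums were also higher with apoE3 and with apoE4 than in the control in 4 of 4 pairs, and their part in the Nradd values was not tested.

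The 6 lists of neurotrophin biology held 121 tested genes. Without the block edgeR called 0 of them in each of the 6 comparisons, with 5, 10 and 4 at an unadjusted p under 0.05 with apoE2, apoE3 and apoE4 against the control, and 3, 8 and 1 for apoE4 against apoE3, apoE4 against apoE2 and apoE3 against apoE2. DESeq2 called 1 for apoE4 against apoE3, 1 for apoE4 against apoE2 and 0 in the other 4. With the block 27 of 121 (22.3%) were called with apoE3, 14 higher and 13 lower, beside 11.7% of all genes, and 9 (7.44%) with apoE4, all higher, beside 3.3%. With apoE2 3 (2.48%) were called, beside 1.73%.

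Among 48 Trk adaptors and signaling kinases, 4 were higher and 2 lower with apoE3 with the block, 4 higher with apoE4 and 1 higher with apoE2, and none of these changed 2-fold. The 6 of 48 called with apoE3 are 12.5%, near the 11.7% of all genes, and the 4 called with apoE4 are 8.33%, beside 3.3%. The median log2 fold change of this list was -0.01 with apoE3. Of 18 partners and effectors of p75NTR, 2 were higher and 2 lower with apoE3, 1 higher with apoE4 and 0 called with apoE2, again with none at 2-fold, and the list's median was 0.09 with apoE3 beside 0.02 over all genes. The 4 called with apoE3 are 22.2% of this list. In the apoE3 neurons Ngfr thus differed more than 2-fold with the block, and no called gene of these 2 lists did.

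Of 21 tested genes that BDNF is known to induce, 1 was higher and 3 lower with apoE3 with the block, 1 higher with apoE4 and 0 called with apoE2. The 4 called with apoE3 are 19% of this list, beside 11.7% of all genes. The list's median log2 fold change was -0.34 with apoE3 and 0.10 with apoE4 without the block, and -0.21 and 0.08 with it. In the same apoE3 libraries 9 of the 10 neuronal markers had a log2 fold change below 0 (median -0.23 without the block), and their part in this list's values was not tested. Egr2, an immediate early transcription factor, had 4.59 ± 3.25 CPM in the control and 2.00 ± 0.52 CPM with apoE3 (SD, n = 4), a log2 fold change of -1.20 (SE 0.54, adjusted p = 0.770 by edgeR) that was lower in 2 of 4 pairs and not called with the block (adjusted p = 0.124 by edgeR).

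Of 16 genes of proneurotrophin processing and release, 1 was higher and 4 lower with apoE3 with the block, which is 31.2% of the list beside 11.7% of all genes. The higher one was Mmp3, a matrix metalloproteinase able to cut neurotrophin precursors, at 7.09, 2.01, 2.48 and 13.6 CPM in control replicates 1 to 4 and 48.6, 3.77, 6.17 and 59.3 CPM in the apoE3 libraries. With apoE2 it was 7.12, 2.18, 3.03 and 21.97 CPM. With apoE4 it was 22.03, 3.08, 1.94 and 56.99 CPM, higher than the control in 3 of 4 pairs (log2 fold change 1.25 with the block, adjusted p = 0.0549 by edgeR). With apoE3 its log2 fold change was 2.23 (SE 1.15, adjusted p = 0.788 by edgeR), or 1.93 with the block (adjusted p = 0.00246 by edgeR, higher in 4 of 4 pairs), and 1.595 against apoE2 with the block (adjusted p = 0.0277 by edgeR). In the control the fibroblast and meningeal sums in replicates 1 to 4 were 135, 28.3, 31.2 and 190 CPM. With apoE2 they were 209, 31.0, 72.2 and 151 CPM. They were 261, 33.8, 59.3 and 362 CPM with apoE3 and 266, 37.1, 79.2 and 331 CPM with apoE4. Numbers 1 and 4 were the highest in each group, as for Mmp3. With apoE2 number 1 had the highest sum and number 4 the highest Mmp3 value. The part of these cells in the Mmp3 values was not tested.

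Of 12 tested genes of the GDNF and gp130 families, which are neurotrophic factors of other kinds and their receptors, 5 were higher and 1 lower with apoE3 with the block, 3 higher with apoE4 and 1 higher with apoE2. These are 50% of the list with apoE3, 25% with apoE4 and 8.33% with apoE2, beside 11.7, 3.3 and 1.73% of all genes. Gfra1, the GDNF co-receptor, rose with apoE3 with the block by a log2 fold change of 1.18 (adjusted p = 7.86e-04 by edgeR) from 47.3 ± 27.3 CPM in the control to 98.4 ± 29.8 CPM (SD, n = 4), and met the 2-fold criterion without the block (1.06). Osmr, the oncostatin M receptor, was higher with the block by 1.08 with apoE2, 1.56 with apoE3 and 1.33 with apoE4 (adjusted p = 0.0170, 5.43e-04 and 0.00175 by edgeR). Lif, which encodes leukemia inhibitory factor, was higher with the block by 1.12 with apoE3 and by 1.12 with apoE4 (adjusted p = 0.0211 and 0.0439 by edgeR), at 1.19 ± 0.52 CPM in the control and 2.93 ± 2.21 CPM with apoE3. The astrocyte sums given above were also higher than the control in every pair with apoE3 and with apoE4. With apoE2 the sums of numbers 2 and 4 were below the control (1153 against 1286 and 2602 against 2735 CPM). The part of the astrocytes in the values of these genes was not tested.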

How the data were processed

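Total RNA without ribosomal RNA was sequenced in 16 libraries. STAR alignments to mm10 were turned into gene counts by the authors with HTSeq, and these raw counts were deposited. The annotation and strand setting are not given in the sources used here. HTSeq's totals for unassigned reads, 38.4 to 73.75% of a library, were left out. The share of Lars2, a gene with a ribosomal repeat, varied from 0.359 to 15.0% of gene counts.

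Counts were tested with edgeR 4.0.16 in R 4.3.3 (TMM, filterByExpr with a minimum count of 10, quasi-likelihood test, 1 coefficient per group over 16 libraries). The fits were first tried on simulated data. Those for the fit without the block held no effects of the replicate number and less spread than these libraries, so that this case was not covered. P-values were adjusted by Benjamini-Hochberg over 17038 genes. Groups and replicate numbers came from the labels, and p-values measure the spread between these libraries. Libraries of the same number were taken as pairs, since their deviations from the group means correlated at 0.362 to 0.831 in all 24 same-number pairs (different numbers -0.736 to 0.569). The pairs of number 1, at 0.362 to 0.552, lay within the range of different numbers. Those of numbers 2, 3 and 4 lay above it, at 0.766 to 0.831, 0.620 to 0.671 and 0.681 to 0.790. With the number as a block, the common dispersion fell from 0.132 to 0.0178. Intervals are 95% intervals of the fit. Log2 CPM used a prior count of 2. Gene positions come from GENCODE M21 on the same build.

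Alternatives were DESeq2 1.42.0 with and without the block, its size factors in edgeR, no filter, a filter of 1 CPM in 8 libraries, only the 2 groups compared, the replicate block, leaving out the 4 features over 1% of any library, and leaving out each library. Leaving out all 4 libraries of a number was added after seeing the data. The genes, the lists and the marker lists (57 tested of 62 genes) were chosen with earlier results of these data known. From the lists, the text names each gene of the ligand and receptor list and genes past an adjusted p of 0.05, or 2-fold at an unadjusted p under 0.05, without the block, or past both with it, at most 3 per list and comparison, and the 3 genes most correlated with each of the 7. Top2a, Gap43, Foxd3 and Pmp2, and Sorcs1 among the calls, were named beside their lists. Some genes that this rule names are not reported here. Gad1, Snap25, Tubb3, Cdh19, Cspg4, Olig1, Olig2 and Flt1 were likewise named as the calls of their marker lists.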

Additional observations from a re-analysis of the deposited data

Results flagged for a closer look

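Within the groups, 2 values of Ngfr stood apart from the other 3 libraries. In the control, replicate 4 (28.9 CPM, the others 6.55 to 7.61) lay so far off that its gap to the nearest library took 0.899 of the range of log2 CPM, above Dixon's 95% critical ratio for 4 libraries. In the apoE2 group, replicate 4 (96.7 CPM, the others 27.3 to 28.4) gave a ratio of 0.967. These were 2 of 28 tests, for 7 genes in 4 groups, of which chance flags about 1 in 20. The apoE4 value of the same number, 27.0 CPM, was also the highest of its group, and the ratio of apoE2 to control within number 4 was 3.34, beside 3.58 to 4.18 in the other numbers.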

How the results depend on the processing

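Of 1176 alternative log2 fold changes of the 7 genes, 1088 kept their direction and side of the threshold, 75 changed sign and 13 passed the threshold where the reported value did not. With the replicate block the number of the 7 genes called rose from 0 to 1 (Ngfr) in every comparison but apoE4 against control, in edgeR and in DESeq2, and DESeq2 without the block gave 1 for apoE3 against control and for apoE4 against apoE3. Leaving out libraries gave 0 to 1 for apoE3 against control, with 1 without replicate 4 of all groups (Ngfr log2 fold change 3.61, edgeR adjusted p = 0.0142). The 2-fold criterion gave 0 to 1 under left-out libraries for apoE4 against apoE2 and for apoE3 against apoE2, and 1 for the latter with either block, DESeq2, or only the 2 groups compared. Of the 121 pathway genes the block called 3, 27, 9, 8, 10 and 5 (apoE2, apoE3 and apoE4 against control, apoE4 against apoE3, apoE4 against apoE2, apoE3 against apoE2), DESeq2 with the block 8, 36, 11, 12, 16 and 8, and DESeq2 1 for apoE4 against apoE3 and 1 for apoE4 against apoE2, all from 0. The block turned Ntf3 for apoE3 against apoE2 to 0.021, and DESeq2 with the block turned it to 0.034 and Sort1 for apoE4 against control to -0.00308. The cause was not tested. Ntf3, with few reads, limits what can be seen.

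Leaving out libraries turned the sign of these log2 fold changes, given as lowest to highest.
Bdnf ranged from -0.67 to 0.24 for apoE2 against control, -0.76 to 0.21 for apoE3 against control, -0.70 to 0.44 for apoE4 against control, -0.38 to 0.66 for apoE4 against apoE3, -0.41 to 0.57 for apoE4 against apoE2 and -0.46 to 0.34 for apoE3 against apoE2.
Ntf3 ranged from -0.47 to 0.67 for apoE2 against control, -0.0197 to 0.55 for apoE3 against control and -0.50 to 0.68 for apoE3 against apoE2.
Ntrk2 ranged from -0.033 to 0.24 for apoE2 against control, -0.031 to 0.34 for apoE3 against control, -0.026 to 0.38 for apoE4 against control, -0.19 to 0.24 for apoE4 against apoE3, -0.10 to 0.28 for apoE4 against apoE2 and -0.10 to 0.23 for apoE3 against apoE2.
Ntrk3 ranged from -0.39 to 0.14 for apoE2 against control, -0.33 to 0.025 for apoE3 against control and -0.32 to 0.21 for apoE3 against apoE2.
Ngfr ranged from -0.061 to 1.129 for apoE4 against control.
Sort1 ranged from -0.32 to 0.061 for apoE2 against control, -0.31 to 0.033 for apoE3 against control, -0.14 to 0.19 for apoE4 against control, -0.017 to 0.34 for apoE4 against apoE3, -0.0403 to 0.34 for apoE4 against apoE2 and -0.21 to 0.19 for apoE3 against apoE2.
Vgf ranged from -0.58 to 0.26 for apoE2 against control, -0.76 to 0.19 for apoE3 against control, -0.41 to 0.70 for apoE4 against control, -0.11 to 0.97 for apoE4 against apoE3, -0.17 to 0.79 for apoE4 against apoE2 and -0.52 to 0.28 for apoE3 against apoE2.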
